A study of Rattus norvegicus with 64 samples.

Results

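The genes described here are 10 genes of the cytoskeleton of young neurons, taken by name from the 17260 genes counted in each sample: the tubulins Tuba1a, Tubb2a, Tubb2b, and Tubb3, doublecortin (Dcx), the microtubule-associated proteins Map1b and Map2, the stathmins Stmn1 and Stmn2, and Dpysl3. All 10 passed the filter on low counts, which kept 12521 genes. Ribosome-depleted total RNA was sequenced from the entorhinal cortex of Long Evans rats, for which the labels name no treatment, at postnatal days 2, 9, 23, and 45 (P2, P9, P23, and P45). Layer II (LII) and the remaining layers III-VI together (LDeep) were dissected from both the medial (MEC) and the lateral (LEC) entorhinal cortex, which gave 64 samples. Every layer of either region was represented by 5 replicates of age P2, 4 of P9, 3 of P23, and 4 of P45. The layers were cut out by eye under a microscope, so each sample is a piece of tissue with all of its cell types, and fewer cells of a type cannot be told apart from less RNA per cell. The study calls the replicates of its MEC layer samples biological replicates. The labels do not say whether replicates of the LEC, or samples that share a replicate number, came from separate animals, so the p-values measure the spread between these samples.

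Microtubules are polymers of alpha- and beta-tubulin, and vertebrates have several genes for each. Neurons that migrate and extend an axon use a particular set of them, Tuba1a, Tubb2b, and Tubb3 among them, together with proteins that stiffen, bundle, or sever the polymer. Mutations in Dcx, Tuba1a, Tubb2b, and Tubb3 are known to disturb cortical migration or axon growth in humans, and Dcx is widely used as a marker of newborn neurons.

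The samples held 3894334 to 11439143 read pairs assigned to genes. Levels are given as log2 CPM, the log2 of counts scaled to the size of the library, and differences as the log2 fold-change (LFC) of the quasi-likelihood test of edgeR over all 64 samples, with its standard error (SE) and a Benjamini-Hochberg (BH) adjusted p value over all genes tested. The lowest count of any of the 10 genes in any sample was 75, for Dpysl3, so none was near the limit of detection. The tissue held the markers of mature neurons in every sample, with a summed level from 980.0 to 1772 CPM at P2 and from 4356 to 6345 CPM at P45. Markers of dividing cells fell from a median sum of 163 CPM at P2 to 12.3 CPM at P45, and markers of oligodendrocytes rose from 59.5 to 3360 CPM. The part of such changes in cell content in the results was not tested. Marker sums of 5 libraries stood apart from their groups. In P2 replicate 1 of the MEC the meningeal markers, which were higher in LII over all samples, went the other way, with 17.2 CPM in LII and 515 CPM in LDeep, and those of endothelium did too, with 189 and 339 CPM. The LII library also had 222 CPM of ependyma and choroid plexus markers, where the other 4 of its group had 4 to 7 CPM. MEC LII of P2 replicate 3 had 27.4 CPM of meningeal markers, against 357 to 621 CPM in replicates 2, 4, and 5. MEC LII of P45 replicate 4 had 139 CPM, against 430.2 to 465 CPM. LEC LII of P9 replicate 2 had 685 CPM of oligodendrocyte markers, where the other LII samples of P9 had 34.1 to 49.2 CPM. Results that changed without these 5 libraries are named where they are given.

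Of the read pairs counted on genes, the 10 genes together took up a median of 3.08% in P2 samples and 1.97% in P9 samples, but of 0.727% in P23 and 0.721% in P45 samples. In the comparison of older (P23/P45) with younger (P2/P9) ages, 9 of the 10 were down-regulated, where 40.6% of all genes tested were and 41% rose. Map2 was the exception. The median LFC was -1.95 over the 10 genes and 0.01 over all genes tested. The falls differed widely in size, from an LFC of -0.98 for Map1b to -4.79 for Dcx. For 8 genes every older sample lay below every younger sample, a pattern seen for 3.82% of all genes. Map1b and Map2 overlapped between the ages.

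**Figure D1:**
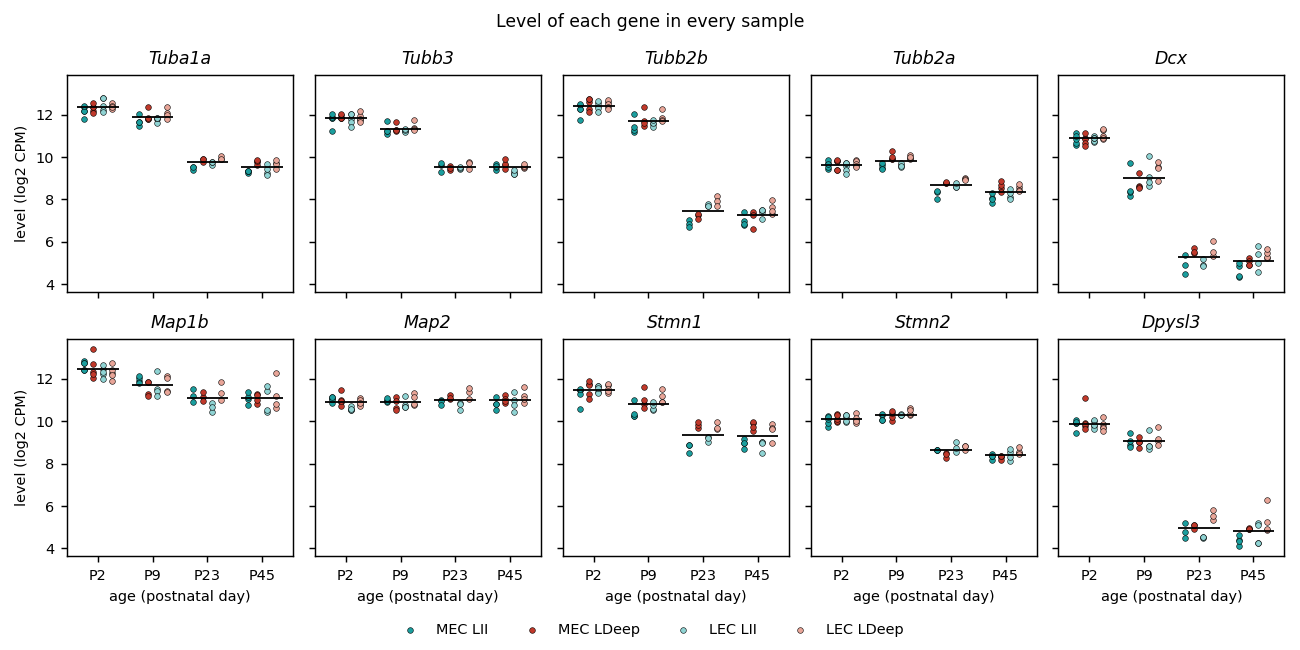
Level (log2 CPM) of each of the 10 genes in the 64 samples by age, with 1 point per sample coloured by region and layer and a line at the mean of each age. Dcx, Tubb2b, and Dpysl3 dropped most between P9 and P23, whereas Map2 lay between 10.5 and 11.6 at all ages.

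Tuba1a, the main alpha-tubulin of growing neurons (chr7:140637287-140640953 on Rn6), ranged from 11.79 to 12.78 log2 CPM at P2, with a median of 12.37. Its median was 11.82 at P9, then 9.77 at P23 and 9.52 at P45. The highest sample of the older ages, at 10.03, lay below the lowest of the younger ages, at 11.44. The LFC between older and younger ages was -2.47 (SE 0.05, BH adjusted p = 8.62e-42 by edgeR), a 5.56-fold difference.

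Tubb2b, a beta-tubulin of migrating and axon-growing neurons (chr17:31441640-31444687), showed the larger drop of the tubulins. Its levels were 11.74 to 12.74 log2 CPM at P2 (median 12.43) and 11.20 to 12.37 at P9 (median 11.66). They were 6.71 to 8.15 at P23 (median 7.50) and 6.60 to 7.97 at P45 (median 7.36). More than 3 log2 units therefore separated the lowest younger sample from the highest older one. The LFC was -4.70 (SE 0.08, BH adjusted p = 1.16e-45), or 26-fold.

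Tubb2a lies 48457 bases from Tubb2b on the same strand of chromosome 17 and codes for a closely similar protein. Its levels had a median of 9.67 log2 CPM at P2 and 9.80 at P9, against 8.77 at P23 and 8.37 at P45, a difference between ages of only 2.30-fold (LFC -1.20, SE 0.04). Within a sample, the log2 ratio of Tubb2b to Tubb2a counts was 2.02 to 2.94 at P2 and 1.54 to 2.33 at P9, whereas it was -1.73 to -0.80 at P23 and -1.75 to -0.69 at P45. The more abundant gene of the pair thus changed from Tubb2b in every younger sample to Tubb2a in every older one. The mean ratio per replicate number differed by -3.54 between 7 older and 9 younger numbers (two-sided exact permutation test, p = 8.7e-05, the smallest possible in this design, BH adjusted p = 0.00017 over 4 ratios). A ratio of counts of the same sample does not depend on how libraries are scaled. Read pairs that map to more than 1 place were not counted, so near-identical stretches of Tubb2a and Tubb2b, and of Tuba1a and its close relatives, may be undercounted.

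Tubb3, the beta-tubulin typical of neurons (chr19:56220759-56229813), had a median of 11.84 log2 CPM at P2 and 11.29 at P9, and medians of 9.52 and 9.53 at P23 and P45. Both older ages were thus alike and lower than either younger age (LFC -2.07, SE 0.05, 4.19-fold).

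The weight of each tubulin gene within its family was followed by dividing the CPM by the exon length. Tuba1a made up a median of 83.9% of the sum of 5 alpha-tubulin genes at P2 and 33.1% at P45. Tuba4a, another alpha-tubulin, made up 2.66% at P2 and 37.6% at P45. Tubb2b went from 37.7% to 4.84% of the sum of 7 beta-tubulin genes between the same ages. Tubb3 stayed between 20.1% and 26.7% in all samples and Tubb5, the widely expressed beta-tubulin, between 20.0% and 29.0%. Tubb4b and Tubb4a went from 3.21% to 25.5% and from 1.06% to 12.4%. The beta-tubulin sum itself was lower at the older ages, with medians of 8602 CPM per kilobase at P2 and 1902 at P45, so a gene with a constant share had a lower level. These shares are descriptions, as the parts of a sum move together.

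**Figure D2:**
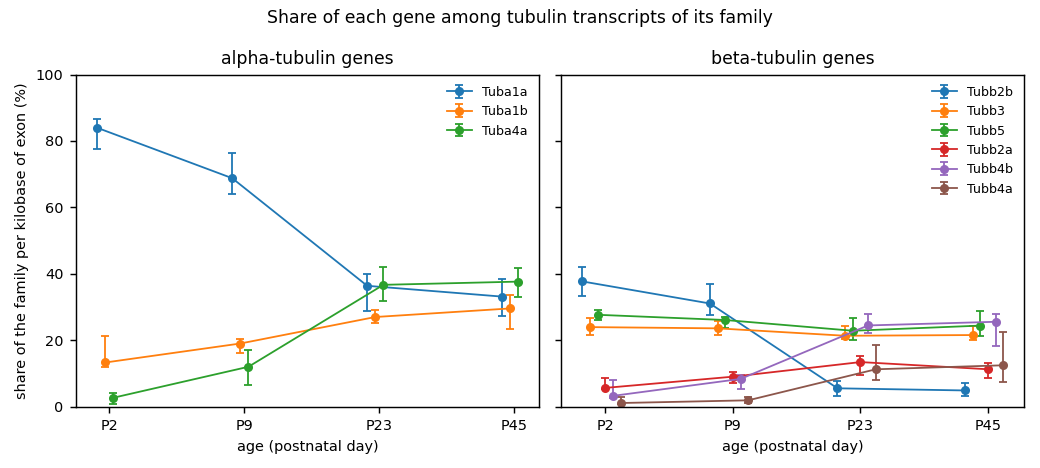
Share (%) of tubulin genes in the length-scaled CPM of the alpha (left) and beta (right) family by age, as the median with bars from the lowest to the highest sample; the rarest genes (Tuba1c, Tuba8, Tubb6) are not drawn. Tuba1a and Tubb2b lost share between P9 and P23, and Tuba4a, Tubb4b, and Tubb4a gained it.

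Dcx binds between protofilaments and stabilizes microtubules in newborn neurons (chrX:115098675-115175299). It fell at both steps between the younger ages and P23. Its levels were 10.53 to 11.32 log2 CPM at P2 (median 10.89), 8.15 to 10.06 at P9 (median 8.83), 4.48 to 6.04 at P23 (median 5.36), and 4.36 to 5.82 at P45 (median 5.05). No sample of P2 overlapped with P9, and none of P9 with P23. In linear terms the median went from 1897 CPM at P2 to 32.8 CPM at P45. The LFC between older and younger ages was -4.79 (SE 0.11, BH adjusted p = 6.46e-40), or 27.8-fold.

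Map1b, a microtubule-associated protein of growing axons (chr2:29675391-29768750), had medians of 12.41, 11.84, 11.06, and 11.09 log2 CPM from P2 to P45. Its samples were more spread, and the highest at P45, at 12.27, lay above the P9 median. Its LFC was -0.98 (SE 0.10, BH adjusted p = 8.58e-13). Map2, which spaces microtubules in dendrites (chr9:73378060-73459375), did not pass the test. Its medians were 10.91, 10.93, 11.03, and 10.98 log2 CPM at the 4 ages, and its LFC was 0.10 (BH adjusted p = 0.0868), with a 95% interval of -0.01 to 0.21. It did pass in LEC samples alone (LFC 0.20, BH adjusted p = 0.0362), without P2 replicate 4 (0.0477), and without P45 replicate 1 (0.0408). In a single combination, LEC LDeep, it was higher at the older ages (LFC 0.30, SE 0.11, BH adjusted p = 0.0156), a call that was lost without P23 replicate 2 (0.0584) or 3 (0.0800).

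The balance between these proteins was also followed within samples. The log2 ratio of Map2 to Map1b counts rose by 1.12 (two-sided exact permutation p = 0.00017, BH adjusted p = 0.00023). That of Dcx to Map2 had a median of -0.02 at P2, where both genes took about equal counts, and of -5.96 at P45. Its difference of -4.99 had an exact permutation p of 8.7e-05 (BH adjusted p = 0.00017). Dcx and Map2 thus separated without any scaling between libraries.

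The stathmins bind free tubulin dimers and favour the shrinking of microtubules. Stmn1 (chr5:152681145-152686806) had medians of 11.50, 10.86, 9.44, and 9.10 log2 CPM from P2 to P45, and an LFC of -1.83 (SE 0.07). Stmn2, found in growth cones (chr2:95424251-95471900), had medians of 10.10, 10.32, 8.65, and 8.37, and an LFC of -1.68 (SE 0.04). The ratio of Stmn1 to Stmn2 did not pass the exact permutation test between ages (difference -0.17, p = 0.38, n = 7 and 9). It had a median of 1.37 on the log2 scale at P2 and of 0.55 at P9, against 0.68 at P23 and 0.80 at P45.

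Dpysl3 codes for a collapsin response mediator protein, a tubulin-binding protein of axon guidance (chr18:37716559-37776453). It followed the course of Dcx and Tubb2b, with medians of 9.87 and 9.03 log2 CPM at the younger and of 5.00 and 4.91 at the older ages. The LFC was -4.59 (SE 0.11, BH adjusted p = 1.11e-39), or 24-fold. The highest older sample, at 6.28, lay far below the lowest younger sample, at 8.71.

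Per exon length, on a log2 RPKM scale, Tubb2b and Tuba1a led at P2 with a median of 11.68 each, and Tubb2b was the higher in 12 of 20 samples, so that these neighbours did not separate. Stmn1 (11.45) and Tubb3 (11.02) came next, and 1.79 lay between Tubb3 and Stmn2 (9.22) as the median difference within samples. Dpysl3 (9.02), Tubb2a (8.99), and Map1b (8.84) followed without clear order, as Dpysl3 was above Tubb2a in 10 of 20 samples and Tubb2a above Map1b in 12. Map2 (8.39) and Dcx (7.75) were lowest in this order, which held in 20 of 20 samples. At P45 the order was Stmn1 (9.04), Tuba1a (8.83), Tubb3 (8.71), Map2 (8.47), Tubb2a (7.69), Map1b (7.52), Stmn2 (7.49), Tubb2b (6.60), Dpysl3 (4.07), and Dcx (1.91). There Tubb2a, Map1b, and Stmn2 did not separate, with each above the next in 9 and 8 of 16 samples. Tubb2b had gone from first to the eighth place, and Map2 from the ninth to the fourth with almost the same level.

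The sequence before the annotated start is shown for 3 genes that fell and for Map2, which did not pass the test, since the data set these genes apart. The 250 bases upstream were taken from RefSeq on GRCr8, a later build than the Rn6 of the counts, and 9 of the 10 genes had an entry; Stmn2 had none. Capitals mark matches on either strand to TATAAA (the TATA box, in 12.9% of 33469 rat promoters of this length), to CCAAT (in 34% of them), to GGGCGG (the GC box, in 30.5%), or to CAGCTG (an E-box, in 12%). The Dcx sequence is chrX:112304162-112304411 (minus strand), that of Tubb2b chr17:30952836-30953085, that of Tubb3 chr19:68365437-68365686, and that of Map2 chr9:75346440-75346689 (all plus strand).
Dcx: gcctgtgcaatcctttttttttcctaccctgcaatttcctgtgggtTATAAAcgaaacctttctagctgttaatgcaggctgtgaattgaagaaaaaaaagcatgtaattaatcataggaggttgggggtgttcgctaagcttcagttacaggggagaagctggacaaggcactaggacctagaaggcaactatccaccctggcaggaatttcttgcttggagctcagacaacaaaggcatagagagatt
Tubb2b: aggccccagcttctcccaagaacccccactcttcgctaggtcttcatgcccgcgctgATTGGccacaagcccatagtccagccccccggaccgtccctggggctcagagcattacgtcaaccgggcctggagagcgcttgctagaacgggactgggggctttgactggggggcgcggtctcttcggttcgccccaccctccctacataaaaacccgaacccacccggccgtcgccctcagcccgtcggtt
Tubb3: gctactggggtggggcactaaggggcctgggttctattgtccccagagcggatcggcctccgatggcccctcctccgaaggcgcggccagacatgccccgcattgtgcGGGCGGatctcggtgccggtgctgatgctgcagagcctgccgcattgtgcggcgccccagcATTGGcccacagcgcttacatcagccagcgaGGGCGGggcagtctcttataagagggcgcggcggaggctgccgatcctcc
Map2: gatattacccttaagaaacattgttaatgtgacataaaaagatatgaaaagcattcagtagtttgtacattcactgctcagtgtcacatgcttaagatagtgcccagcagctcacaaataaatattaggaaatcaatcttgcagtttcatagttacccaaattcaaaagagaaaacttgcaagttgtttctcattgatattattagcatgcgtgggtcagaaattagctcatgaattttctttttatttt
Dcx held 1 TATAAA, Tubb2b 1 CCAAT, Tubb3 1 CCAAT and 2 GGGCGG, and Map2 no match to any of the 4. A match describes the letters only and is not evidence of a bound factor.

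Between successive ages the genes did not all move together. From P2 to P9, 7 genes fell, where 31.8% of all genes tested did, and 2 rose, where 31.6% did. Dcx fell by far the most (LFC -1.83, SE 0.13), followed by Dpysl3 (-0.84), Map1b (-0.73), Tubb2b (-0.71), Stmn1 (-0.64), Tubb3 (-0.49), and Tuba1a (-0.47). Tubb2a rose by an LFC of 0.16 (SE 0.06, BH adjusted p = 0.0127) and Stmn2 by 0.19 (SE 0.06, BH adjusted p = 0.00233), so that both had their highest mean over all samples at P9. Mean Tubb2a went from 9.66 to 10.03 log2 CPM in MEC LDeep and from 9.68 to 9.98 in LEC LDeep. In LII it went from 9.65 to 9.56 in the MEC and from 9.52 to 9.61 in the LEC. By edgeR, Tubb2a did not pass in MEC samples alone (BH adjusted p = 0.2065) or LEC samples alone (0.0675), nor Stmn2 in MEC samples alone (0.1237). The rise of Tubb2a was lost without P9 replicate 4 (LFC 0.11, BH adjusted p = 0.0996), and with quantile normalization in limma the LFC was 0.05 for Tubb2a and -0.01 for Tuba1a, neither of which passed.

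The step from P9 to P23 was the larger one for every gene that fell but Map1b. The same 9 genes as between older and younger ages fell, where 32.1% of all genes did. The LFC was -4.28 for Tubb2b (SE 0.12), -4.11 for Dpysl3 (SE 0.16), -3.78 for Dcx (SE 0.16), -2.13 for Tuba1a, -1.80 for Tubb3, -1.66 for Stmn2, -1.48 for Stmn1, -1.13 for Tubb2a, and -0.64 for Map1b. Tubb2b therefore changed 19.4-fold between P9 and P23, after 1.63-fold between P2 and P9. From P23 to P45 only Tubb2a (LFC -0.30, SE 0.07, BH adjusted p = 0.00203) and Stmn2 (LFC -0.24, SE 0.06, BH adjusted p = 0.0163) fell further, where 1.86% of all genes did. The call of Stmn2 was lost without P23 replicate 2, P23 replicate 3, or P45 replicate 1 (BH adjusted p up to 0.176). In MEC samples alone neither passed (BH adjusted p = 0.671 for Tubb2a and 0.491 for Stmn2), and in LEC samples alone Stmn2 did not (0.125). With the 4 samples of 1 age and replicate number summed, neither passed by edgeR (BH adjusted p = 0.147 for Tubb2a and 0.336 for Stmn2).

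**Figure D3:**
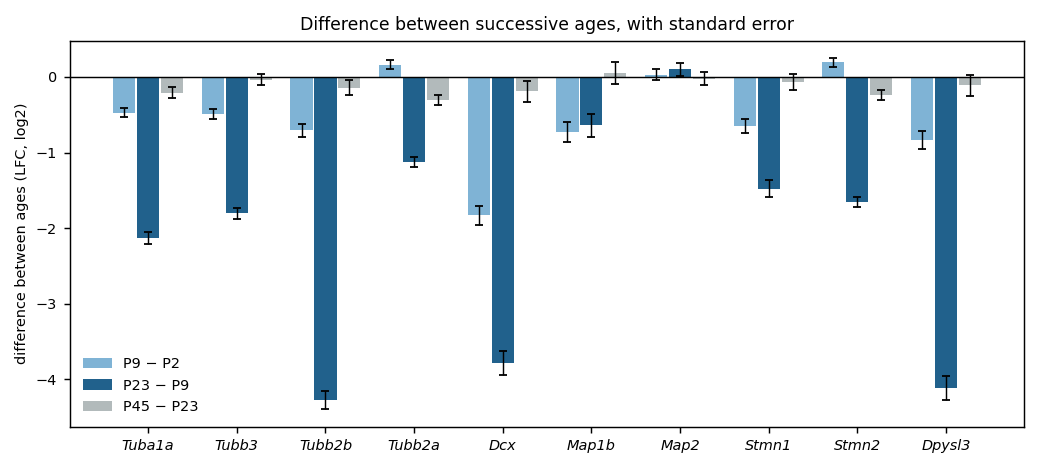
LFC of each gene between successive ages over all regions and layers, as bars with the standard error of the edgeR fit (64 samples). The bars of P23 against P9 are the longest for every gene but Map1b, and those of Tubb2a and Stmn2 point up from P2 to P9.

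Replicate 4 of P9 had the highest level of its group in 31 of 40 combinations of gene, region, and layer. For Dcx, Tubb2b, Tubb3, Stmn1, and Dpysl3 it was the highest in all 4 groups. In MEC LII, for example, the P9 levels of Dcx were 8.15, 8.35, 8.39, and, in replicate 4, 9.71 log2 CPM. The summed mature neuron markers of replicate 4 were the lowest of the P9 samples in each of the 4 groups, at 1931 CPM in MEC LII against 2324 to 2716 CPM in the other 3. Without this number the LFC of Dcx was -2.15 from P2 to P9 and -3.49 from P9 to P23, and that of Tubb2b was -0.89 and -4.12. Its 4 samples therefore made the early step smaller and the later step larger.

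In all 4 combinations of region and layer the same 9 genes were lower at the older ages, where 32% of all genes tested were in MEC LII, 34.1% in MEC LDeep, 29.4% in LEC LII, and 31.7% in LEC LDeep. The call of Map1b in LEC LDeep was lost with quantile normalization (LFC -0.51, BH adjusted p = 0.0602). The LFC of Dcx was -5.01 in MEC LII, -4.51 in MEC LDeep, -4.93 in LEC LII, and -4.73 in LEC LDeep. That of Tubb2b was -4.96, -4.97, -4.45, and -4.43 in the same order, so its fall was greater in both layers of the MEC. The difference between regions in the age change was called for 1 of the 10 genes, Tubb2b (LFC -0.53, SE 0.13, BH adjusted p = 0.0105), where 4.38% of all genes were called.

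Between layers, 8 of the 10 genes were lower in LII than in LDeep when ages and regions were combined, where 30.5% of all genes tested were. The differences were far smaller than those between ages, with a median LFC of -0.24 against -0.05 over all genes. Stmn1 differed most (LFC -0.56, SE 0.07, BH adjusted p = 6.52e-10), then Dpysl3 (-0.35), Tubb2a (-0.33), Dcx (-0.27), Tubb2b (-0.24), Tuba1a (-0.24), Map2 (-0.20), and Tubb3 (-0.11). Stmn1 was lower in LII in 15 of 16 replicate numbers in the MEC and in 14 of 16 in the LEC. Stmn2 (-0.03) and Map1b (-0.07) did not pass. The call of Tubb3 (BH adjusted p = 0.0408) was weak. It was lost when any of 8 replicate numbers was left out and without the 5 libraries with unusual marker sums (0.111), and with quantile normalization the LFC was 0.04. With quantile normalization Tuba1a also did not pass (LFC -0.08, BH adjusted p = 0.230). The call of Dcx was lost without P23 replicate 3 (BH adjusted p = 0.0664). In MEC samples alone, Map2 (LFC -0.05, BH adjusted p = 0.579), Dpysl3 (-0.24, 0.105), Dcx (-0.23, 0.161), and Tubb3 (-0.05, 0.6155) did not pass by edgeR. In LEC samples alone, Dcx (-0.29, 0.0763) and Tuba1a (-0.16, 0.06095) did not. The mean difference of Map2 within replicate numbers was -0.03 in the MEC and -0.33 in the LEC.

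Markers of neurons and of other cell types moved with the layers. Of 7 mature neuron markers, 3 were lower in LII, Snap25 (LFC -0.30), Syt1 (-0.24), and Rbfox3 (-0.16), and 1 was higher, Camk2a (0.30). These differences were of the size of most of those above. Of 7 meningeal markers, 6 were higher in LII and 1 lower (median LFC 3.75), and 4 of 5 astrocyte markers (median LFC 0.90), 5 of 5 markers of endothelium and pericytes (0.59), and 4 of 5 markers of dividing cells (0.49) were higher. Of 5 oligodendrocyte markers, 3 were lower in LII and none higher (median LFC -0.86). The summed meningeal markers ranged from 17.2 to 743 CPM in LII and from 18.2 to 515 CPM in LDeep, with no marker at 0 in all samples of a layer. Summed oligodendrocyte markers ranged from 34.1 to 4531 CPM in LII and from 46.1 to 15223 CPM in LDeep. Their part in the layer differences was not tested. At P2 none of the 10 genes passed between layers by edgeR, where 19.2% of all genes were called. The count was also 0 at an unadjusted p below 0.05 and with limma or DESeq2. The largest LFC there was -0.16, for Tubb2b. Of the 5 libraries with unusual marker sums, 3 are MEC samples of P2, and in replicate 1 the meningeal and endothelial sums were higher in LDeep. Without the 5 libraries the count at P2 was again 0.

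At P9, 3 of the 10 were lower in LII, where 16.2% of all genes were: Stmn1 (LFC -0.52, BH adjusted p = 0.00231), Tubb2a (-0.42, 0.000107), and Tuba1a (-0.26, 0.0286). At P23 there were 6, against 11% of all genes: Stmn1 (-0.82), Dcx (-0.63), Dpysl3 (-0.62), Tubb2a (-0.41), Map2 (-0.41), and Tuba1a (-0.30). At P45 there were 4, against 12% of all genes: Stmn1 (-0.76), Dpysl3 (-0.59), Tubb2a (-0.42), and Tuba1a (-0.37). With 3 replicates, the P23 calls leaned on single numbers. Those of Tuba1a and Dpysl3 were lost without any 1 of the 3, those of Dcx and Map2 without 2 of the 3, and that of Tubb2a without replicate 2 (BH adjusted p = 0.0685), whereas that of Stmn1 was not lost. In single regions at P23, Dcx did not pass by edgeR in the MEC (BH adjusted p = 0.209) or the LEC (0.119). Nor did Tuba1a (0.116 and 0.2805). In MEC samples alone Dpysl3 (LFC -0.19, BH adjusted p = 0.727) and Map2 (-0.20, 0.472) did not pass, and in LEC samples alone Tubb2a did not (0.0817). The mean difference within replicate numbers for Dpysl3 at P23 was -0.22 in the MEC and -1.02 in the LEC. The P9 call of Tuba1a was lost without any of 5 numbers (BH adjusted p up to 0.1) and without the 5 libraries with unusual marker sums (0.0730). With quantile normalization in limma, Tuba1a did not pass at P9 (BH adjusted p = 0.515), P23 (0.340), or P45 (0.1565). At P45 Dpysl3 passed by edgeR in neither MEC samples alone (0.162) nor LEC samples alone (0.1175). Tubb2a (0.0828) and Tuba1a (0.149) also did not pass at P45 in LEC samples alone. Stmn1 at P9 passed in neither region alone (0.0647 in the MEC and 0.0944 in the LEC), nor did Tuba1a (0.231 and 0.3).

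The levels of Stmn1 show the layer difference at the older ages sample by sample. At P23 they were 8.86, 8.52, and 8.86 log2 CPM in MEC LII and 9.66, 9.84, and 9.95 in MEC LDeep. In the LEC they were 9.04, 9.25, and 9.23 in LII and 9.63, 9.66, and 9.96 in LDeep. LII and LDeep did not overlap in either region. The same held at P23 for Dcx, Tubb2a, Tuba1a, and Map2. The share of all genes without such overlap was not computed, so this separation cannot be read as particular to these genes. At P45 the layers were again apart for Stmn1 in the MEC, at 8.69, 8.97, 9.18, and 8.99 against 9.90, 9.56, 9.97, and 9.75. In the LEC, at 9.00, 8.52, 9.01, and 8.97 against 9.88, 9.68, 9.63, and 8.99, replicate 4 of LDeep lay among the LII samples. At P2, by contrast, 4 of 5 LII values in the MEC and 4 of 5 in the LEC lay within the range of LDeep of the same region. The layer difference of Stmn1 was larger at the older ages (LFC -0.46, SE 0.14, BH adjusted p = 0.0236), the single gene of the 10 called in this interaction, where 8.80% of all genes were. This call was lost without P2 replicate 4 (0.0505) or P23 replicate 2 (0.0574). Without the 5 libraries with unusual marker sums it was kept (LFC -0.49, BH adjusted p = 0.00979), and Dpysl3 also passed (LFC -0.56, 0.0434). The layer difference itself was not called to differ between MEC and LEC for any of the 10 by edgeR, limma, or DESeq2, where 1.25% of all genes were called by edgeR. At an unadjusted p below 0.05 there was 1, Map2, which was lower in LII in 15 of 16 replicate numbers in the LEC and in 10 of 16 in the MEC (difference 0.30, 95% interval 0.08 to 0.52, BH adjusted p = 0.219). For this unadjusted threshold too the share of all genes is not given.

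**Figure D4:**
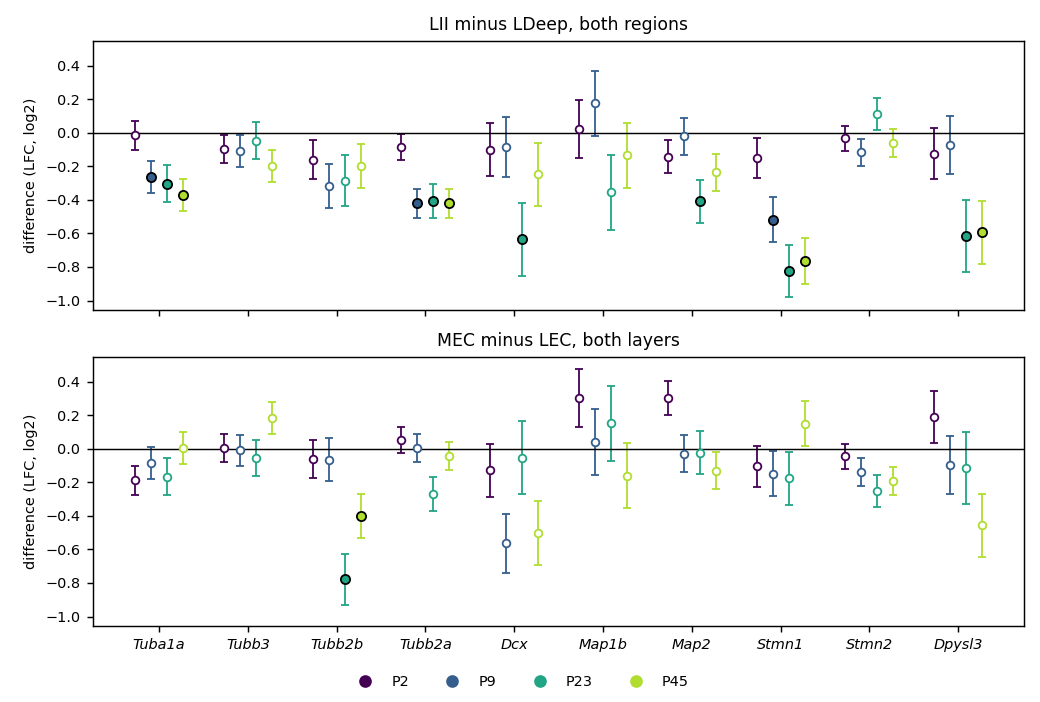
LFC with standard error of LII against LDeep (top) and of MEC against LEC (bottom) at each age, from the edgeR fit of 64 samples, with filled points for a BH adjusted p below 0.05. Stmn1 and Tubb2a have filled points below 0 between layers from P9 on, and Tubb2b has them between regions at P23 and P45. Their points at earlier ages also lie below 0 but are open.

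Between regions, with ages and layers combined, 3 of the 10 genes were lower in the MEC than in the LEC, where 6.53% of all genes tested were: Tubb2b (LFC -0.33, SE 0.07, BH adjusted p = 0.000201), Dcx (-0.31, SE 0.09, 0.0142), and Stmn2 (-0.16, SE 0.04, 0.00565). The call of Dcx was lost without P23 replicate 3 (0.0881). None of the 10 passed by edgeR at P2, where 2.67% of all genes were called, or at P9, where 3.88% were called. At an unadjusted p below 0.05 there were 2 at P2, Map2 and Tuba1a, and 1 at P9, Dcx. The share of all genes at this unadjusted threshold is not given, so these counts cannot be set against a background. With limma Tuba1a passed at P2 (BH adjusted p = 0.00976). Dcx had an LFC of -0.56 at P9 (BH adjusted p = 0.0596) and passed with DESeq2 (0.0368), with limma (0.0185), and without the 5 libraries with unusual marker sums (0.0192). At P23 only Tubb2b passed (LFC -0.78, SE 0.15, BH adjusted p = 0.000654), where 3.57% of all genes were called. Its P23 levels were 7.05, 6.82, and 6.71 log2 CPM in MEC LII against 7.70, 7.80, and 7.68 in LEC LII, and 7.28, 7.33, and 7.09 in MEC LDeep against 8.15, 7.90, and 7.69 in LEC LDeep. The regions did not overlap in either layer at this age. The share of all genes without such overlap was not computed, so this separation cannot be read as particular to Tubb2b. At P45 Tubb2b passed with an LFC of -0.40 (SE 0.13, BH adjusted p = 0.0414), where 9.12% of all genes were called, but not without any 1 of the 4 replicates (BH adjusted p up to 0.164) or without the 5 libraries with unusual marker sums (0.0598). Over all ages it was lower in the MEC in 14 of 16 replicate numbers in LII and in 13 of 16 in LDeep.

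Other genes of the same functions were examined as lists, by their change between younger and older ages. Of all genes tested, 41% rose and 40.6% fell in this comparison, so a list split evenly is near this background. Of 12 other tubulin genes tested, 5 rose and 5 fell (median LFC -0.05 against 0.01 over all genes). Tuba8 (LFC 1.70), Tuba4a (1.47), and Tubb4a (1.17) rose most, and Tubb5 (-2.11), Tubb6 (-1.21), and Tube1 (-1.10) fell most. Tubb6 was also higher in LII by an LFC of 1.90. Of 10 other genes of the stathmin, collapsin response mediator, and doublecortin families, 8 fell and 1 rose (median LFC -0.74). Dpysl5 (-4.07), Crmp1 (-2.95), and Dclk2 (-1.20) fell most, and the doublecortin-like kinase Dclk1 rose (0.48, SE 0.07). The steep fall of Dpysl3 was thus shared by Dpysl5 of its family.

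Of 11 other structural microtubule-associated proteins, 6 fell and 4 rose (median LFC -0.21). Mapt, the gene of tau, fell (LFC -1.82, SE 0.05), as did Map10 (-0.70) and Map9 (-0.49). Map1a, the relative of Map1b used by mature neurons, rose (1.48, SE 0.12), as did Map6d1 (1.47) and Map7 (1.04). Of 6 genes of tubulin folding, 4 fell, Tbca and Tbcd (-0.67 each), Tbcb (-0.57, SE 0.27, BH adjusted p = 0.0471), and Tbce (-0.20), and 2 rose, Arl2 (0.66) and Tbcc (0.17). Tbcb lay near the limit of detection, with a mean of -0.12 log2 CPM at P2 and -0.52 at P45. Of 8 genes of tubulin modification, 6 fell and 2 rose (median LFC -0.61). Vash2, a carboxypeptidase that removes the last tyrosine of alpha-tubulin, fell most (-3.95), ahead of the acetyltransferase Atat1 (-1.98), and the deacetylase Sirt2 rose (1.37). Of 13 genes that bind microtubule ends or sever microtubules, 12 fell and 1 rose (median LFC -0.60). The end-binding proteins took opposite directions, with Mapre1 at an LFC of -1.66 and Mapre3 at 0.92.

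Partners of Lis1 and Cdk5, which act with Dcx in migration, changed little. Of 8 tested, 4 fell and 2 rose (median LFC -0.12), with the largest fall in Cdk5r1 (-0.53) and the largest rise in Cdk5r2 (0.65). Growth cone genes mostly fell, 7 of 8, with 1 up (median LFC -1.46). Nrep (-2.56), Marcksl1 (-2.09), and Gap43 (-1.70) fell most, and Gpm6a rose (0.72). Gap43 shared with Tubb2a and Stmn2 a mean that was higher at P9 (10.59 log2 CPM) than at P2 (10.43). Of 8 immature neuron markers, 7 fell and 1 rose (median LFC -2.51), led by Igfbpl1 (-3.53), Nhlh2 (-3.27), and Sox11 (-2.80). Neurod1 rose (0.50, BH adjusted p = 0.0155), but not with quantile normalization (LFC 0.35, BH adjusted p = 0.108).

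The genes whose log2 CPM followed Dcx most closely over the 64 samples were Kdm2b (Pearson's r = 0.99), Fnbp1l (0.99), Vash2 (0.99), Crmp1 (0.98), and Abhd17c (0.98). Among the other 9 genes described here r with Dcx was 0.98 for Dpysl3, 0.97 for Tubb2b, Tubb3, and Tuba1a, 0.94 for Stmn1, 0.91 for Stmn2, 0.86 for Tubb2a, 0.84 for Map1b, and -0.10 for Map2. Closest to Map2 were Myo5a (0.84), Herc2 (0.84), Akap6 (0.78), Ncor1 (0.78), and Cpeb4 (0.78). The samples fall into 4 ages, so any genes that change with age correlate, and these values describe likeness only.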

How the data were processed

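Per the labels and the study's methods, the authors trimmed paired reads with Trimmomatic 0.33, aligned them to Rn6 with STAR 2.4.0, and counted strand-specific read pairs on RefSeq exons with featureCounts (Subread 1.4.6-p1). The deposited values are these raw counts per gene; pairs mapped to several places were left out and pairs overlapping several genes were counted for each. Depth was 3894334 to 11439143 counts per sample (median 7569157.5). Groups (region, layer, age) came from the labels.

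The 10 genes and the lists beside them were chosen with earlier results of these data known. Counts were fitted in R 4.3.3 with edgeR 4.0.16 (TMM, quasi-likelihood test, 16 groups, no replicate block, filterByExpr), with BH adjustment and a threshold of 0.05. The SE is the LFC divided by the square root of F, and the 95% interval is its normal approximation. log2 CPM used a prior count of 2. Ratios used a pseudocount of 0.5. Scripts were tested on simulated counts. In each list, all genes were named if fewer than 7 were tested, and otherwise at most the 3 with the largest rise and fall among those called. Alternatives were limma 3.58.1 (voom, quantile), DESeq2 1.42.0, RLE, other filters, single regions, a replicate block, each age and replicate number left out, and, chosen after seeing the data, 5 libraries with unusual marker sums left out.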

Additional observations from a re-analysis of the deposited data

Results flagged for a closer look

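Among the 120 groups of 4 or 5 samples of the 10 genes, 13 gene values, from 9 libraries, lay far from the others of their group by Dixon's criterion. Chance gives about 1 in 20 groups, but genes of the same library are not independent. In P9 replicate 4 these were the highest values of Dcx in MEC LII (9.71 log2 CPM, next 8.39) and MEC LDeep (9.25, next 8.64), of Tuba1a in MEC LDeep (12.35, next 11.83), of Stmn1 in MEC LII (10.98, next 10.32), and of Dpysl3 in LEC LII (9.61, next 8.83). In P2 replicate 1 of MEC LII, the sample with ependymal markers, they were the lowest values of Tubb3 (11.24, next 11.82), Stmn1 (10.58, next 11.31), and Dpysl3 (9.46, next 9.92). The remaining values were Dpysl3 in MEC LDeep of P2 replicate 4 (11.12, next 9.91), Map2 in LEC LII of P2 replicate 2 (10.74, next 10.59), Tuba1a in LEC LII of P9 replicate 2 (11.60, next 11.82) and MEC LII of P45 replicate 1 (9.23, next 9.33), and Stmn1 in LEC LII of P45 replicate 2 (8.52, next 8.97).

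The effects of 2 genes differed between groups by the interaction term of edgeR. The layer difference of Stmn1 was larger at the older ages, with a difference of -0.46 (BH adjusted p = 0.0236), where 8.8% of all genes were called. This call was lost without P2 replicate 4 (0.0505) or P23 replicate 2 (0.0574). It was also lost in MEC samples only (0.2144) and in LEC samples only (0.1125). The age change of Tubb2b was larger in the MEC than in the LEC, with a difference of -0.53 (BH adjusted p = 0.0105), where 4.38% of all genes were called.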

How the results depend on the processing

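Over regions and layers together, the fall of 9 of the 10 genes at the older ages kept its direction and call in every alternative run, and so did the falls from P9 to P23. Of 817 values of the 10 genes under the other tools, filters, and fits, 751 kept direction and call, and of 1696 with 1 age and replicate number left out, 1651 did. Unless stated otherwise the causes were not tested, and fits of 1 region have fewer samples. The share of all genes called is not given for these alternatives, so a changed count cannot be read as particular to the 10 genes.

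The number of genes called between P23 and P45, 2 of 10, was 0 in MEC samples only, 1 in LEC samples only, and 1 to 3 with a number left out. Between layers the 8 became 4 in MEC samples only. At P9 the 3 became 1 in MEC samples only and 1 in LEC samples only, at P23 the 6 became 2 in MEC samples only, 3 in LEC samples only, and 2 to 7 with a number left out, and at P45 the 4 became 1 in LEC samples only. The 1 gene with a layer by age interaction became 2 with limma (voom, quantile), 2 with DESeq2, 2 with the 5 libraries with unusual marker sums left out (an alternative chosen after seeing the data), 0 in MEC samples only, 0 in LEC samples only, and 0 to 4 with a number left out. Between regions the count went from 0 to 1 at P2 with limma (voom, quantile), from 0 to 1 at P9 with limma, with DESeq2, with at least 10 counts in every sample, and without those 5 libraries, and ranged from 0 to 1 there with a number left out. At P45 the 1 became 0 with no filter on low counts, and 0 to 2 with a number left out.

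Samples with the same age and number correlated with a mean r of 0.13 in their deviations over 96 pairs, of which 55 were over 0.1, against -0.04 over 300 pairs of other numbers, and 42 of 64 samples correlated best with their own number. The replicate block left 7 genes called between layers (Tubb3 was lost), 4 between layers at P9 (Tubb2b was gained, LFC -0.27, BH adjusted p = 0.0182), and 4 between regions, 2 in the layer by age interaction (Dpysl3 was gained), 1 between regions at P9 (Dcx) and 2 at P45 (Dcx and Tubb2b). With the 4 samples of 1 number summed, the replicate block left 0 genes called between P23 and P45 (BH adjusted p = 0.147 for Tubb2a and 0.336 for Stmn2), and 9 between older and younger ages. Its p-values for age were larger, with a BH adjusted p of 7.07e-14 for Tubb2b against 1.16e-45 in the main edgeR fit.

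Directions of LFCs were reversed only for values near 0 that no longer passed or had never passed the test. Between layers these were Tubb3 at 0.041, Stmn2 at 0.070, and Map1b at 0.062 with limma (voom, quantile), Stmn2 at 0.021 with at least 10 counts in every sample, 0.018 in MEC samples only, and 0.0056 with the replicate block, and Map1b at 0.12 in MEC samples only; with a number left out Stmn2 ranged from -0.044 to 0.018. Between regions, with limma, Tubb3 was at -0.031 and Map2 at -0.0084, and Map2 ranged from -0.0002 to 0.063 with a number left out. From P2 to P9 Map2 was at -0.0051 with limma, -0.14 in MEC samples only, -0.021 with summed numbers in the replicate block, and -0.013 to 0.061 with a number left out; in older against younger ages it was at -0.0047 in MEC samples only. The age difference of the Stmn1 to Stmn2 ratio, which did not pass, was reversed by more, at 0.35 in MEC LDeep alone against -0.17 in the main run.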
